A study of Sorghum bicolor with 24 samples.

Results

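Roots of sorghum (Sorghum bicolor) labelled as deficient in phosphorus for 4 days were compared with mock roots of the same day by RNA sequencing. The comparison takes every library that the deposited labels place in these groups, which is 6 of the 24 libraries of the series, 3 per group. Both groups carry the tissue label roots, and the labels give no genotype, no age of the plants and no composition of the mock or deficient medium. The same table holds a second pair of groups, labelled P deficiency and mock at day 7, with 3 libraries each, which is used here where day 4 differs from it. The labels do not say whether the 3 replicates of a group are different plants, and p-values cover just the spread among these libraries, which may be technical. Each library held between 32631226 and 45292506 counts.

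Plants take up phosphorus as inorganic phosphate. When phosphate runs short, inositol pyrophosphates fall and SPX proteins release the MYB-type PHR transcription factors, which then switch on phosphate transporters, secreted phosphatases, nucleases and enzymes that swap phospholipids for lipids free of phosphorus. SPX genes are themselves targets of PHR, so that their transcripts are a common marker of phosphate shortage. In many grasses the same condition raises the synthesis of strigolactones, carotenoid-derived hormones that roots release and that mycorrhizal fungi sense.

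Most called members of these classical gene groups were lower, not higher, in the libraries labelled P deficiency, which is opposite to the usual effect of phosphate shortage. All directions below follow the deposited library labels, and the libraries labelled P deficiency are also called the P-labelled libraries. In the authors' deposited table, the log2 fold changes of the day 4 comparison pointed the same way as P deficiency over mock by the library labels for 319 of 21755 genes with a value, and for 0 of the 9023 such genes called here. At day 7 the signs were the same for 110 of 21501 genes, and for 0 of the 8215 called. The table names P deficiency first in that comparison. Whether the library labels or the response of the plants departs from the usual pattern was not tested.

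Libraries of a group resembled each other more than those of the other group. Pearson correlations across genes of log2(CPM + 1) were 0.981 to 0.988 among the P-labelled libraries, 0.991 to 0.993 among mock and 0.909 to 0.938 between the groups. Here CPM is the count per 1000000 counts of a library after TMM scaling (trimmed mean of M-values, which corrects library totals for composition). Replicate 3 labelled P deficiency lay nearest to mock (0.934 to 0.938 with the 3 mock libraries, against 0.909 to 0.924 for the other replicates). Of the leaf markers, the only Rubisco small chain gene had 0, 0.0455 and 0 CPM in the P-labelled libraries and 0 CPM in all mock libraries, and the 15 chlorophyll a-b binding genes together reached 6.93 to 13.2 CPM in the 6 libraries. The 37 photosystem subunit genes summed to 72.2, 63.6 and 68.9 CPM against 17.2, 25.6 and 20.1 CPM in mock. Carbonic anhydrase genes, which roots also express, summed to 382, 395 and 423 CPM against 442, 425 and 425 CPM in mock. Phosphoenolpyruvate carboxylase and pyruvate, phosphate dikinase were also among the leaf markers. The former summed to 449, 536 and 510 CPM against 1449, 1403 and 1522 CPM in mock. The latter summed to 66.6, 66.5 and 57.7 CPM against 96.9, 62.8 and 99.5 CPM in mock. Root markers did not move together. Transcripts of 4 Casparian strip membrane proteins, which line the root endodermis, summed to 54.4, 71.2 and 89.7 CPM in the P-labelled libraries and 155, 136 and 107 CPM in mock. Sorgoleone O-methyltransferases (200.9 to 278.2 against 676.5 to 911.2 CPM) and respiratory burst oxidases (615.2 to 702.6 against 1187 to 1396 CPM) also summed lower. Nicotianamine synthases (2642 to 3063 against 453.9 to 1405 CPM), high-affinity nitrate transporters (265.9 to 377.5 against 127 to 168 CPM) and root hair RSL factors (124.7 to 132.1 against 102.5 to 118.6 CPM) summed higher. In whole roots, fewer cells of a type and less RNA per cell cannot be told apart.

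Of 25137 genes tested, the P-labelled libraries of day 4 had 5094 at a higher (20.3%) and 4619 at a lower level (18.4%) (edgeR quasi-likelihood test, Benjamini-Hochberg adjusted p below 0.05), while the median log2 fold change of all tested genes was 0.02. The losses were larger than the gains. At least 2-fold differences were called for 2046 genes higher (8.14%) and 2636 lower (10.5%), at least 10-fold for 273 and 444, and at least 100-fold for 51 and 118. Genes called higher made up 39.9%, 37.6% and 33.9% of the counts in the P-labelled libraries and 19.4%, 19.8% and 19.0% in mock. Genes called lower made up 13.5%, 15.2% and 17.6% against 35.2%, 34.8% and 34.9%. In both shares replicate 3 labelled P deficiency was the library of its group closest to mock, and without it 5024 genes were higher and 5284 lower.

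**Figure D1:**
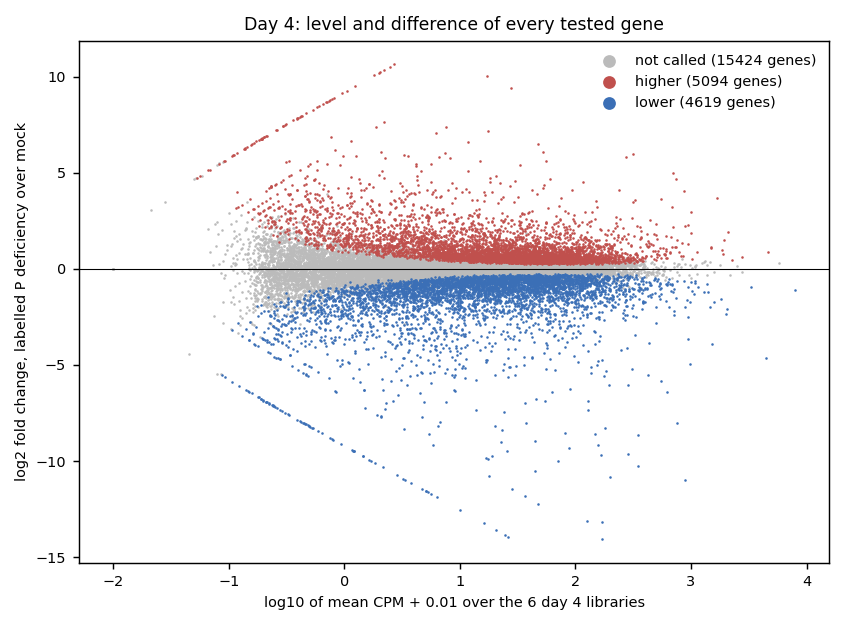
Log2 fold change of every tested gene at day 4 (labelled P deficiency over mock, vertical axis) against the log10 of its mean CPM over the 6 libraries (horizontal axis), with 5094 genes called higher in red and 4619 called lower in blue. Past 100-fold there are 118 losses and 51 gains, and the slanting lines of points at the left are genes with 0 counts in 1 of the groups, whose fitted fold change is not a measured size.

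The genes with the largest gains in CPM had diverse roles. Phytochrome A (Sobic.001G111500), a red and far-red light receptor, was at 4106, 2917 and 2393 CPM with the P deficiency label and 229, 272 and 229 CPM in mock, a 12.9-fold difference (log2 fold change 3.69 ± 0.34 SE, edgeR adjusted p = 3.51e-06). The 3 P-labelled libraries lay far above all mock libraries. The Myb-related gene MYBAS2 (Sobic.009G016600) was at 3916, 2897 and 3049 CPM against 701, 1061 and 877 CPM in mock (1.90 on the log2 scale, adjusted p = 0.000252 with edgeR), and metallothionein-like protein 1 (Sobic.005G228700), a small metal-binding protein, at 6687, 6908 and 4359.9 CPM against 3412, 2971 and 3242 CPM in mock. Transcripts named for senescence and dormancy were also among the 8 largest gains in CPM, with SENESCENCE-ASSOCIATED GENE 21 (Sobic.003G117000), a late embryogenesis abundant protein, 16.6-fold higher and dormancy-associated protein 1 (Sobic.001G191200) 7.71-fold higher. The reader of N6-methyladenosine marks on RNA ECT2 (Sobic.001G498200) was higher by 0.99 on the log2 scale, at 2846, 2200.5 and 2322 CPM. None of these genes overlapped between the groups, which was a condition for naming them.

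The largest loss was that of abscisic stress-ripening protein 5 (Sobic.006G078500), a small stress protein, at 362, 281 and 390.3 CPM with the P deficiency label and 7957, 9407 and 8448 CPM in mock. It was 25-fold lower (log2 fold change -4.64 ± 0.26 SE, edgeR adjusted p = 3.29e-08), and every P-labelled library lay below every mock library, as the rule for naming required. Phenylalanine ammonia-lyase (Sobic.004G220300), which opens the phenylpropanoid pathway to lignin and flavonoids, was at 4901, 4998 and 5360.2 CPM against 11466, 10748 and 10459 CPM in mock (log2 fold change -1.10 ± 0.15 SE, edgeR adjusted p = 7.34e-05). Sucrose synthase 2 (Sobic.001G344500), which cleaves sucrose without spending ATP, was at 727, 703 and 914 CPM against 3541, 3115 and 3279 CPM in mock. The inorganic pyrophosphatase 1 gene (Sobic.003G279300), which cuts pyrophosphate into phosphate, was at 0.110, 0.614 and 1.86 CPM against 1586, 1851 and 1926 CPM in mock. It was near 0 in each P-labelled library, and its fitted log2 fold change of -11.01 became -12.21 without P deficiency replicate 3, which held most of the few counts. Germin-like protein 1-1 (Sobic.003G136200) was 2.93-fold lower. The cortical cell-delineating protein (Sobic.005G046700) was at 1795, 1776 and 3222 CPM against 5361, 3814 and 4054 CPM in mock, and its call ended without mock replicate 1 (adjusted p = 0.0583).

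Genes at 0 counts in 1 group but at a mean of 10 CPM or more in the other were all at 0 in the P-labelled libraries. There were 10 genes with 0 counts in all 3 libraries labelled P deficiency and a mean of at least 10 CPM in mock, and 0 genes of the reverse kind. Of the 10, 5 carried a description and 5 were at 0 counts at day 7 as well in the P-labelled libraries. Among them were serine carboxypeptidase II-2 (Sobic.003G195700), at 45.2, 33.7 and 44.3 CPM in mock and at least 543-fold lower, and 11-beta-hydroxysteroid dehydrogenase 1A (Sobic.008G187200), at 33.4, 31.3 and 31.5 CPM and at least 424-fold lower. These bounds set the P-labelled libraries at a floor of 3 counts each.

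Signalling genes of the phosphate response are described first. SPX domain proteins had the lowest median of the phosphate lists, with 7 of 9 tested members lower and 1 higher (median log2 fold change -6.05), where 18.4% of all tested genes were lower and 20.3% higher. SPX5 (Sobic.001G342400) was at 2.19, 1.77 and 1.25 CPM with the P deficiency label and 634, 699.7 and 732 CPM in mock (log2 fold change -8.63 ± 0.21 SE, edgeR adjusted p = 2.53e-11). SPX3 (Sobic.001G259100) fell from 527, 580.2 and 611 CPM in mock to 0.575, 0.750 and 0.791 CPM. A pair of SPX1 genes were lower by different amounts, with Sobic.010G185200 at 16.7, 17.4 and 14.5 CPM against 569.6, 633 and 619 CPM in mock and Sobic.004G084900 at 2.27, 2.48 and 1.86 CPM against 242, 264 and 259 CPM in mock. In all of these the groups stood apart by more than an order of magnitude. SPX6 (Sobic.003G183600) was 66.3-fold lower, whereas SPX4 (Sobic.001G028500), which in rice holds PHR2 in the cytoplasm, was lower by only 1.88-fold, at 37.6, 35.6 and 36.2 CPM against 70.7, 68.0 and 66.8 CPM in mock. The proteins that join an SPX domain to a transporter domain, known in rice as vacuolar phosphate transporters, did not move together. The gene described as OsI_08463 (Sobic.004G282900) was at 0.274, 0.500 and 0.817 CPM against 236, 377 and 318 CPM in mock, OsI_17046 (Sobic.006G185500) was higher at 7.61, 7.30 and 5.62 CPM against 1.53, 1.14 and 1.64 CPM in mock (log2 fold change 2.25 ± 0.29 SE, edgeR adjusted p = 5.32e-05), and the third (Sobic.010G019000) was at 22.7, 31.2 and 32.4 CPM against 35.2, 31.7 and 36.2 CPM in mock with overlapping groups and no call (adjusted p = 0.211 with edgeR). The summed CPM of the 9 genes was 97.0, 104 and 97.2 in the P-labelled libraries and 2648, 3053 and 3062 in mock.

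The transcription factors above these genes showed smaller differences. Of 10 tested phosphate starvation regulators, 5 were lower and 0 higher (median -0.68). PHOSPHATE STARVATION RESPONSE 1 (Sobic.001G384300) was at 82.0, 66.7 and 68.0 CPM against 67.4, 61.1 and 66.2 CPM in mock and PHOSPHATE STARVATION RESPONSE 2 (Sobic.002G121600) at 77.3, 61.0 and 82.1 CPM against 61.8, 65.0 and 57.9 CPM in mock, neither called (adjusted p = 0.291 and 0.163 with edgeR). The ubiquitin-conjugating enzyme E2 24 (Sobic.009G228100), named PHO2 in Arabidopsis and known there to remove phosphate transporters, was also not called (0.37 on the log2 scale, adjusted p = 0.0871). A PHOSPHATE STARVATION RESPONSE 3 gene (Sobic.010G254300) was the exception, at 7.97, 9.75 and 11.9 CPM with the P deficiency label and 144, 112 and 136 CPM in mock (log2 fold change -3.72 ± 0.20 SE, edgeR adjusted p = 2.01e-08). A second gene of that description (Sobic.004G036500) was at 1.81, 1.57 and 1.63 CPM against 4.91, 3.77 and 3.59 CPM in mock, and PHR1-LIKE 2 (Sobic.002G161700) fell by 0.52 on the log2 scale. SEC12-like proteins share their descent with PHF1, which in Arabidopsis lets phosphate transporters leave the endoplasmic reticulum. One SEC12-like gene (Sobic.001G054000) was at 0.657, 0.227 and 0 CPM against 71.9, 76.2 and 74.4 CPM in mock, with a fitted log2 fold change of -8.0 that became -9.27 without P deficiency replicate 1, and the other (Sobic.002G060900) was 2.89-fold lower.

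Kinases that make the inositol phosphates read by SPX domains differed in both directions, 2 higher and 4 lower of 11. Inositol-tetrakisphosphate 1-kinase 3 (Sobic.001G106900) was at 72.0, 82.4 and 57.5 CPM with the P deficiency label and 11.8, 13.6 and 11.3 CPM in mock (log2 fold change 2.53 ± 0.19 SE, edgeR adjusted p = 5.75e-07), while inositol-tetrakisphosphate 1-kinase 2 (Sobic.001G447200) was at 19.0, 15.8 and 16.8 CPM against 103, 114 and 117 CPM in mock (log2 fold change -2.69 ± 0.20 SE, edgeR adjusted p = 4.23e-07). The enzymes that add the last phosphate, described as inositol hexakisphosphate and diphosphoinositol-pentakisphosphate kinases, split in the same manner. Sobic.001G132600 was 3.19-fold higher and Sobic.003G315166 was 3.33-fold lower, the latter at 80.4, 82.9 and 73.2 CPM against 264, 277 and 247 CPM in mock. Neither pair overlapped between the groups, which was a condition for naming these genes.

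Genes of phosphate uptake and export follow. Of 16 tested phosphate transporters 12 were lower and 1 higher (median -3.89). PHT1-2 (Sobic.001G502000), a member of the plasma membrane family that takes up phosphate, was among the 8 largest losses in CPM, at 63.5, 69.9 and 49.2 CPM with the P deficiency label and 2002, 1430.5 and 2270.4 CPM in mock (log2 fold change -4.97 ± 0.36 SE, edgeR adjusted p = 3.44e-07). Per length, in the authors' FPKM (fragments per kilobase and per 1000000 fragments), PHT1-2 stood at 909.8 ± 208 (SD, n = 3) in mock and 30.3 ± 5.24 in the P-labelled libraries, and PHT1-3 (Sobic.001G234900) at 135 ± 17.8 and 0.357 ± 0.192. PHT1-8 (Sobic.001G234800) kept a sizeable level, at 128, 106 and 135 CPM in the P-labelled libraries against 917, 775 and 899 CPM. Genes whose rice namesakes serve mycorrhizal roots had no counts there. PHT1-11 (Sobic.003G243400) and PHT1-13 (Sobic.006G026900) had 0 counts in all 3 P-labelled libraries, against 50.8, 41.0 and 65.2 CPM and 8.74, 7.97 and 11.6 CPM in mock, or at least 692-fold lower for the former and 125-fold for the latter. PHT1-6 (Sobic.007G164400) was at 0.329, 0.386 and 0.587 CPM against 124, 183 and 182 CPM in mock. The PHO1 proteins, which load phosphate into the xylem, showed smaller differences. PHO1-2 (Sobic.004G339800) was at 278, 302 and 359.8 CPM against 629, 950.3 and 768 CPM in mock (log2 fold change -1.32 ± 0.18 SE, edgeR adjusted p = 8.24e-05), and PHO1-1 (Sobic.003G101000) was at 49.7, 50.3 and 51.3 CPM against 47.7, 76.5 and 65.4 CPM in mock and not called. The lone gain was PHT1-12 (Sobic.001G502100), a rare transcript at 1.48, 1.84 and 1.2 CPM against 0.276, 0.270 and 0.286 CPM in mock (log2 fold change 2.43 ± 0.44 SE, edgeR adjusted p = 0.000862). PHT1-6, PHT1-8, PHT1-12, PHO1-1 and PHO1-2 were chosen after their values were seen, to show the family in full.

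Enzymes that recycle phosphate were more often lower than higher. Purple acid phosphatases, many of which are secreted and free phosphate from organic compounds, gave 14 of 26 lower and 6 higher (median -1.14). All 14 losses were at least 2-fold but only 2 of the gains, and only 3 gains were left when mock replicate 2 or 3 or P deficiency replicate 1 or 2 was left out. PAP3 (Sobic.001G442300) was at 8.24, 14.8 and 20.4 CPM with the P deficiency label and 1200.3, 1233 and 1237 CPM in mock (log2 fold change -6.40 ± 0.29 SE, edgeR adjusted p = 4.12e-09). PAP22 (Sobic.008G036300) held 7 counts in the 3 P-labelled libraries together and was 1624-fold lower, with 87.1, 85.5 and 94.8 CPM in mock. Its fitted log2 fold change of -10.50 became -11.58 without P deficiency replicate 2. A gene of the probably inactive PAP1 type (Sobic.008G140300) went the other way, at 51.8, 37 and 38.4 CPM against 4.32, 2.82 and 3.02 CPM in mock (log2 fold change 3.65 ± 0.19 SE, edgeR adjusted p = 2.19e-08). PAP29 (Sobic.002G275900) was higher by only 0.41 on the log2 scale, and its call ended without mock replicate 2 or 3 or any 1 of the P-labelled replicates (adjusted p 0.0549 to 0.122).

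Ribonucleases and nucleases, which recover phosphate from nucleic acids, gave 11 of 21 lower and 4 higher (median -0.66). Ribonuclease 1 genes are secreted enzymes of the S-like type, and one of them (Sobic.002G385500) was at 43.1, 59.2 and 33.9 CPM with the P deficiency label and 278, 259 and 294 CPM in mock (log2 fold change -2.61 ± 0.19 SE, edgeR adjusted p = 4.26e-07). Endonuclease 2 (Sobic.003G087300) was 24.1-fold lower. The 4 gains included apyrases, which split nucleotides. Apyrase 3 (Sobic.005G086000) was at 7.64, 4.52 and 3.57 CPM against 1.66, 1.17 and 0.989 CPM in mock, while apyrase 6 (Sobic.007G137900) and apyrase 7 (Sobic.009G166600) were higher by 0.37 and 0.29 on the log2 scale. The call of apyrase 6 ended without mock replicate 3 or P deficiency replicate 1 (adjusted p 0.107 and 0.0879), and that of apyrase 7 with no filter, with only the 6 libraries compared, and without mock replicate 2 or 3 or any of the P-labelled replicates (adjusted p 0.0588 to 0.116). Of the 4 gains, 2 were left without mock replicate 2 or 3 or any 1 P-labelled replicate, and with no filter on low counts.

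Membrane lipid remodelling genes gave 34 of 68 lower and 8 higher (median -0.53, summed CPM 2923 to 3113 against 11410 to 11807 in mock). The list and its sum also hold the inorganic pyrophosphatase 1 gene (Sobic.003G279300), described above. This gene was at 0.110, 0.614 and 1.86 CPM against 1586, 1851 and 1926 CPM in mock. The glycerophosphodiesterase gene GDPD2 Sobic.004G157300, which removes the head group from deacylated phospholipids, was among the 8 largest losses in CPM, at 167, 205 and 189 CPM with the P deficiency label and 2642, 3038 and 2866 CPM in mock (log2 fold change -3.93 ± 0.20 SE, edgeR adjusted p = 1.75e-08). It kept a sizeable level in all P-labelled libraries, unlike the other gene of that description, Sobic.006G054800. The latter held 3 counts in all, from replicate 2, against 214, 275 and 263 CPM in mock, a ratio of 11032 (95% counting interval 3435 to 48681). Monogalactosyldiacylglycerol synthase 2 (Sobic.007G211900), which builds galactolipid to replace phospholipid in Arabidopsis, held 4 counts, from replicate 3, against 327, 333 and 364 CPM. Without those libraries the fitted log2 fold changes of -13.11 and -13.18 became -16.18 and -16.64, which are not measured sizes. Lipid phosphate phosphatase 2 genes, which turn phosphatidic acid into diacylglycerol, were higher instead, with Sobic.009G221500 at 156, 126 and 88.6 CPM against 40.8, 34.3 and 44.9 CPM in mock (log2 fold change 1.62 ± 0.24 SE, edgeR adjusted p = 0.000156) and Sobic.007G108500 at 102, 93.8 and 78.3 CPM against 43.5, 41.3 and 42.8 CPM in mock. A GDPD gene Sobic.010G202000 was higher at 6.79, 5.73 and 5.59 CPM against 2.91, 2.70 and 2.32 CPM in mock.

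**Figure D2:**
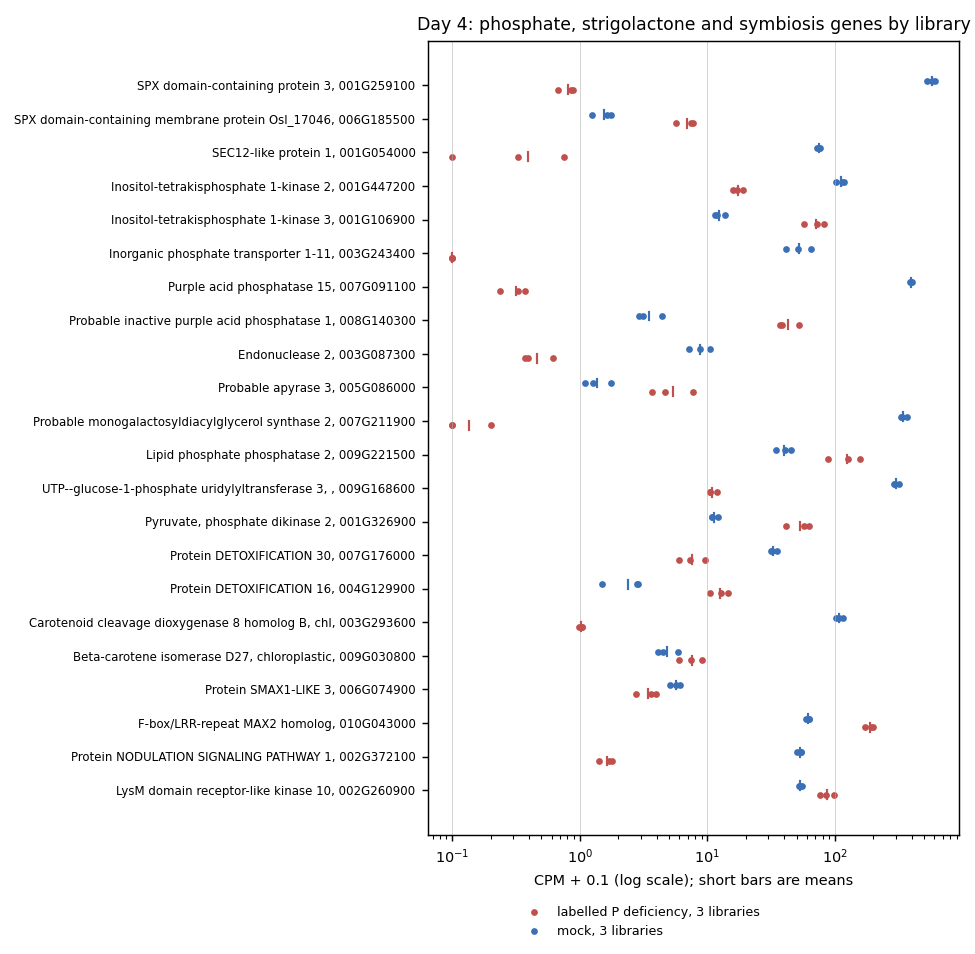
CPM + 0.1 in each of the 3 libraries labelled P deficiency (red) and 3 mock libraries (blue), log scale, for the named gene with the largest difference in each direction of every phosphate, strigolactone and symbiosis list; short bars are means and points at 0.1 are libraries with 0 counts. SPX3 lies at 527 to 611 CPM in mock and below 1 CPM in the P-labelled libraries, while MAX2 and inositol-tetrakisphosphate 1-kinase 3 lie higher in the P-labelled libraries.

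Metabolism that spares phosphate was next examined. Enzymes that bypass phosphate-using steps of glycolysis and respiration gave 18 of 41 lower and 4 higher (median -0.60). UTP-glucose-1-phosphate uridylyltransferase 3 (Sobic.009G168600), which in Arabidopsis feeds sulfolipid synthesis in plastids, was at 11.8, 10.4 and 10.3 CPM with the P deficiency label and 316, 292 and 295 CPM in mock (log2 fold change -4.79 ± 0.13 SE, edgeR adjusted p = 3.52e-11). The kinases that activate phosphoenolpyruvate carboxylase were both lower. Phosphoenolpyruvate carboxylase kinase 1 (Sobic.004G219900) was at 13.3, 21.6 and 20.8 CPM against 226, 323 and 290.2 CPM in mock and kinase 2 (Sobic.004G338000) at 2.03, 2.16 and 1.35 CPM against 34.6, 33.0 and 38.3 CPM in mock, and the 5 carboxylase genes themselves summed to 449, 536 and 510 CPM against 1449, 1403 and 1522 CPM. Pyruvate, phosphate dikinase 2 (Sobic.001G326900), which regenerates phosphoenolpyruvate, rose to 62.5, 57.2 and 40.9 CPM from 12.1, 10.7 and 10.9 CPM (log2 fold change 2.25 ± 0.29 SE, edgeR adjusted p = 6.33e-05). Pyruvate, phosphate dikinase 1 (Sobic.009G132900) went the other way, at 4.14, 9.32 and 16.8 CPM against 84.8, 52.0 and 88.7 CPM in mock, and the 2 genes together summed to 66.6, 66.5 and 57.7 CPM against 96.9, 62.8 and 99.5 CPM. An external NAD(P)H dehydrogenase of mitochondria (Sobic.010G235000) was higher by 0.69 on the log2 scale. Ubiquinol oxidase 4 (Sobic.006G258700), the terminal oxidase of plastids, was higher by 0.82, but the call ended without mock replicate 1 or 2 or P deficiency replicate 1 or 2 (adjusted p 0.0570 to 0.0924). Of the 4 gains of the list, 2 were left without mock replicate 1 or 2 or P deficiency replicate 2.

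Genes of organic acid export and synthesis, by which roots free bound phosphate from soil, were split, with 17 of 79 higher and 24 lower (median -0.26), and without P deficiency replicate 1 only 7 were higher. Members of the DETOXIFICATION family, which holds citrate exporters among transporters of other substrates, stood on both sides. DETOXIFICATION 16 (Sobic.004G129900) was at 14.5, 12.8 and 10.4 CPM against 2.70, 2.76 and 1.38 CPM in mock, DETOXIFICATION 14 (Sobic.003G260200) at 116, 112 and 75.1 CPM against 24.8, 28.3 and 27.7 CPM in mock, and DETOXIFICATION 30 (Sobic.007G176000) at 5.83, 9.41 and 7.25 CPM against 31.6, 31.7 and 35.1 CPM in mock. Malate synthase (Sobic.006G127100), of the glyoxylate cycle, was 3.40-fold higher (log2 fold change 1.76 ± 0.16 SE, edgeR adjusted p = 2.88e-06). The aluminum-activated malate transporter 10 gene (Sobic.004G284700) was 3.84-fold lower (log2 fold change -1.94 ± 0.21 SE, edgeR adjusted p = 1.33e-05).

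Strigolactone genes differed by step. The synthesis pathway runs from the isomerase D27 through the dioxygenases CCD7 and CCD8 to carlactone, which cytochromes P450 of the MAX1 type then oxidise. Of 10 tested genes 6 were lower and 2 higher (median -2.23). At the P450 step, Sobic.003G269500 was at 1.97, 2.84 and 4.93 CPM with the P deficiency label and 75.8, 77.5 and 87.3 CPM in mock (log2 fold change -4.62 ± 0.32 SE, edgeR adjusted p = 2.64e-07) and Sobic.004G095500 at 0.904, 0.978 and 0.664 CPM against 8.89, 13.7 and 15.6 CPM in mock (log2 fold change -3.90 ± 0.34 SE, edgeR adjusted p = 2.08e-06). The other 2 genes with the same description differed little. Sobic.003G269600 was at 13.5, 13.1 and 8.27 CPM against 17.3, 15.8 and 17.9 CPM in mock, a call that ended with scaling by total counts, without any 1 of the mock libraries or without P deficiency replicate 3 (adjusted p 0.0548 to 0.118), and Sobic.010G170400 overlapped between the groups and was not called (adjusted p = 0.182 with edgeR). Upstream, CCD8-B (Sobic.003G293600) was 118-fold lower, CCD7 (Sobic.006G170300) 19.0-fold and the D27 gene Sobic.005G168200 34.5-fold. A CCD8-A gene (Sobic.005G002500) was higher, at 2.33, 2.27 and 1.99 CPM against 0.583, 0.749 and 0.651 CPM in mock. The D27 gene Sobic.009G030800 was also higher, at 9.04, 7.39 and 5.92 CPM against 4.42, 5.81 and 4.01 CPM in mock, but lost the call in the fit of only the 6 libraries compared, with the replicate block, and without mock replicate 1 or 3 or P deficiency replicate 1 or 2 (adjusted p 0.0518 to 0.187).

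On the perception side the median of 14 tested genes was 0.05 (-0.06 without mock replicate 1 and -0.05 without P deficiency replicate 3), with 3 higher and 5 lower, of which 3 were left lower without mock replicate 2. The receptor gene D14 (Sobic.001G465100) was at 449, 358 and 418 CPM with the P deficiency label and 146, 128 and 138 CPM in mock (log2 fold change 1.57 ± 0.19 SE, edgeR adjusted p = 3.36e-05), and the F-box gene MAX2 (Sobic.010G043000), which joins the receptor in marking repressors for degradation, at 198, 190.0 and 171 CPM against 62.4, 62.1 and 59.7 CPM in mock. Neither gene overlapped between the groups, which was a condition for naming them. The repressor DWARF 53 (Sobic.005G002400) was lower, at 56.9, 62.8 and 57.4 CPM against 82.4, 88.3 and 86 CPM in mock (log2 fold change -0.54 ± 0.10 SE, edgeR adjusted p = 0.000867). The related receptor D14L (Sobic.001G330000), which in rice is needed for mycorrhiza, was 1.33-fold lower. SMAX1-LIKE 3 (Sobic.006G074900) fell by 0.73 on the log2 scale, a call that ended without mock replicate 2 or P deficiency replicate 1 (adjusted p = 0.0521 and 0.0614).

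Symbiosis genes gave 8 of 22 lower and 3 higher (median -0.60), and 1 gain was left without mock replicate 2 or 3 or P deficiency replicate 1. Their share called was 50%, against 38.6% of all tested genes. NODULATION SIGNALING PATHWAY 1 is a GRAS transcription factor that acts in symbiosis and in strigolactone synthesis of legumes and rice. Both genes of that description were lower, with Sobic.002G372100 at 1.31, 1.68 and 1.58 CPM with the P deficiency label and 50.5, 54.2 and 53.8 CPM in mock (log2 fold change -5.11 ± 0.19 SE, edgeR adjusted p = 7.73e-10) and Sobic.001G341400 at 6.24, 7.93 and 6.28 CPM against 59.5, 51.9 and 54.8 CPM in mock. CYCLOPS (Sobic.010G013000), the transcription factor that the symbiotic calcium signal activates, was at 7.56, 5.21 and 8.50 CPM against 119.6, 95.1 and 98.2 CPM in mock (log2 fold change -3.88 ± 0.27 SE, edgeR adjusted p = 2.70e-07). RAM2 (Sobic.001G250200), an acyltransferase that makes lipid precursors for mycorrhizal fungi, was 4.11-fold lower. Genes at the start of the pathway differed little. The ion channel CASTOR (Sobic.001G016700) was at 70.5, 67.8 and 56.2 CPM against 48.8, 47.9 and 50.4 CPM in mock, a call that ended without any 1 of the mock libraries or P deficiency replicate 1 or 2 (adjusted p 0.0772 to 0.159). LysM receptor-like kinase 10 (Sobic.002G260900) was higher by 0.69 on the log2 scale.

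Among other nutrients, iron genes were more often higher than lower, unlike most phosphate lists, with 21 of 46 tested higher and 5 lower (median 0.38). Grasses take up iron by releasing mugineic acids, made from nicotianamine. Nicotianamine synthase 2 (Sobic.001G395900) was at 3062, 2641 and 2872 CPM with the P deficiency label and 1189.8, 1402 and 447 CPM in mock (log2 fold change 1.5 ± 0.32 SE, edgeR adjusted p = 0.00260), and nicotianamine aminotransferase 1 (Sobic.002G041200), the next enzyme, at 1656, 1661 and 1364 CPM against 371, 380.2 and 206 CPM in mock (log2 fold change 2.29 ± 0.23 SE, edgeR adjusted p = 7.42e-06). Mock replicate 3 stood lowest for both. The summed CPM of the list was 11941, 11656 and 11303 in the P-labelled libraries and 5385, 6001 and 2759 in mock, and with any 1 of the 6 libraries left out 16 to 20 genes were higher. The vacuolar iron transporter 2 gene (Sobic.002G194600), which stores iron, was 7.54-fold higher. Deoxymugineic acid synthase 1-D (Sobic.006G096400) was lower, at 12.6, 16.6 and 16.6 CPM against 69.5, 73.0 and 74.0 CPM in mock (log2 fold change -2.24 ± 0.13 SE, edgeR adjusted p = 5.80e-08).

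Nitrate uptake and assimilation genes were mixed, with 33 of 101 higher and 21 lower (median 0.18), and without P deficiency replicate 1 only 21 were higher. High-affinity nitrate transporter 2.1 (Sobic.004G009400) was at 44.0, 65.2 and 46.9 CPM with the P deficiency label and 2.91, 2.31 and 2.79 CPM in mock (log2 fold change 4.28 ± 0.36 SE, edgeR adjusted p = 1.31e-06), whereas transporter 2.3 (Sobic.003G270800), which in rice serves root-to-shoot transport, was at 0.274, 0.364 and 0.510 CPM against 18.7, 15.9 and 19.2 CPM in mock (log2 fold change -5.53 ± 0.30 SE, edgeR adjusted p = 2.50e-08). The NIGT1 and HHO repressors link nitrate and phosphate supply, since in Arabidopsis they are phosphate starvation targets that repress nitrate uptake. NIGT1 (Sobic.008G036900) was at 6.79, 8.55 and 8.27 CPM against 170.4, 189 and 196 CPM in mock (log2 fold change -4.55 ± 0.15 SE, edgeR adjusted p = 2.19e-10) and HHO3 (Sobic.001G078900) at 191, 182 and 124 CPM against 64.6, 61.2 and 74.1 CPM in mock (log2 fold change 1.31 ± 0.19 SE, edgeR adjusted p = 0.000137). The third repressor (Sobic.003G046800), chosen after its values were seen, was at 17.3, 13 and 14.5 CPM against 19.4, 26.7 and 17.4 CPM in mock, a call near the threshold (adjusted p = 0.0485 with edgeR) that ended when only the 6 libraries were fitted, with scaling by total counts, and without mock replicate 1 or 2 or P deficiency replicate 2 or 3.

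Zinc and metal transporters were evenly split, 18 higher and 18 lower of 68 (median -0.15), with 52.9% called against 38.6% of all tested genes. Zinc transporter 9 (Sobic.007G064900), a zinc uptake protein of rice roots, showed the largest gain, at 114, 132 and 80.1 CPM with the P deficiency label and 3.25, 1.29 and 2.26 CPM in mock (log2 fold change 5.58 ± 0.29 SE, edgeR adjusted p = 1.76e-08). Potassium genes gave 6 of 39 higher and 13 lower (median -0.12, and 0.06 without mock replicate 1). Potassium transporter 12 (Sobic.007G075100) was at 154, 135 and 118 CPM against 35.6, 29.9 and 31.6 CPM in mock, and potassium transporter 4 (Sobic.007G153001) was 10.5-fold lower. Sulfate genes gave 9 of 29 higher and 11 lower (median 0.08, and -0.01 without P deficiency replicate 1). Sulfate transporter 1.2 (Sobic.001G470600), a root uptake protein, was at 160.3, 176 and 99.1 CPM against 71.4, 41.7 and 54.2 CPM in mock (log2 fold change 1.38 ± 0.28 SE, edgeR adjusted p = 0.00198). Sulfate transporter 3.4 (Sobic.010G033800), whose rice namesake distributes phosphate rather than sulfate, was at 5.07, 4.41 and 5.92 CPM against 23.2, 36.6 and 27.2 CPM in mock (log2 fold change -2.50 ± 0.33 SE, edgeR adjusted p = 7.33e-05). Of 34 aquaporins 10 were higher and 7 lower, the latter count falling to 1 without mock replicate 1, 3 without P deficiency replicate 1 and 4 without P deficiency replicate 2. The tonoplast aquaporin TIP2-2 (Sobic.010G146100) was at 354, 338 and 568 CPM against 98.3, 54.1 and 59.0 CPM in mock (log2 fold change 2.57 ± 0.34 SE, edgeR adjusted p = 6.98e-05). NIP3-1 (Sobic.001G195800), a boric acid channel, was 2.22-fold lower, and its call ended without mock replicate 1 or P deficiency replicate 1 or 2 (adjusted p 0.0518 to 0.107).

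Transcripts of carbon metabolism were grouped in 3 lists. Sugar transporters leaned towards gains, with 26 of 71 higher and 14 lower (median 0.11, and -0.01 without P deficiency replicate 2). Polyol transporter 6 (Sobic.009G157800) was at 5.81, 6.87 and 8.40 CPM against 0.153, 0.120 and 0.0781 CPM in mock, 59.99-fold higher, while polyol transporter 5 (Sobic.002G354100) was 5.97-fold lower. Genes of sucrose cleavage and starch gave 20 of 79 in each direction. The cell wall invertase gene (Sobic.006G255500), which splits sucrose outside the cell, was at 131, 87.0 and 81.2 CPM with the P deficiency label and 3.74, 6.68 and 5.83 CPM in mock (log2 fold change 4.20 ± 0.46 SE, edgeR adjusted p = 1.46e-05), set against the lower sucrose synthase 2 named above. A large subunit of glucose-1-phosphate adenylyltransferase (Sobic.001G100000), of starch synthesis, held 5 counts in the P-labelled libraries against 15.1, 10.1 and 13.8 CPM in mock, and its fitted log2 fold change of -8.17 became -8.80 without P deficiency replicate 2. Cytosolic glycolysis and fermentation genes were mostly lower, 24 of 47 against 8 higher (median -0.55, summed CPM 4695 to 5160 against 7795 to 8193). Alcohol dehydrogenase 1 (Sobic.005G103500), a marker of low oxygen, was at 13, 14.3 and 19.1 CPM against 102, 98.0 and 87.3 CPM in mock (log2 fold change -2.63 ± 0.19 SE, edgeR adjusted p = 2.98e-07), and alcohol dehydrogenase-like 7 (Sobic.002G379200) was 2.28-fold higher.

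**Figure D3:**
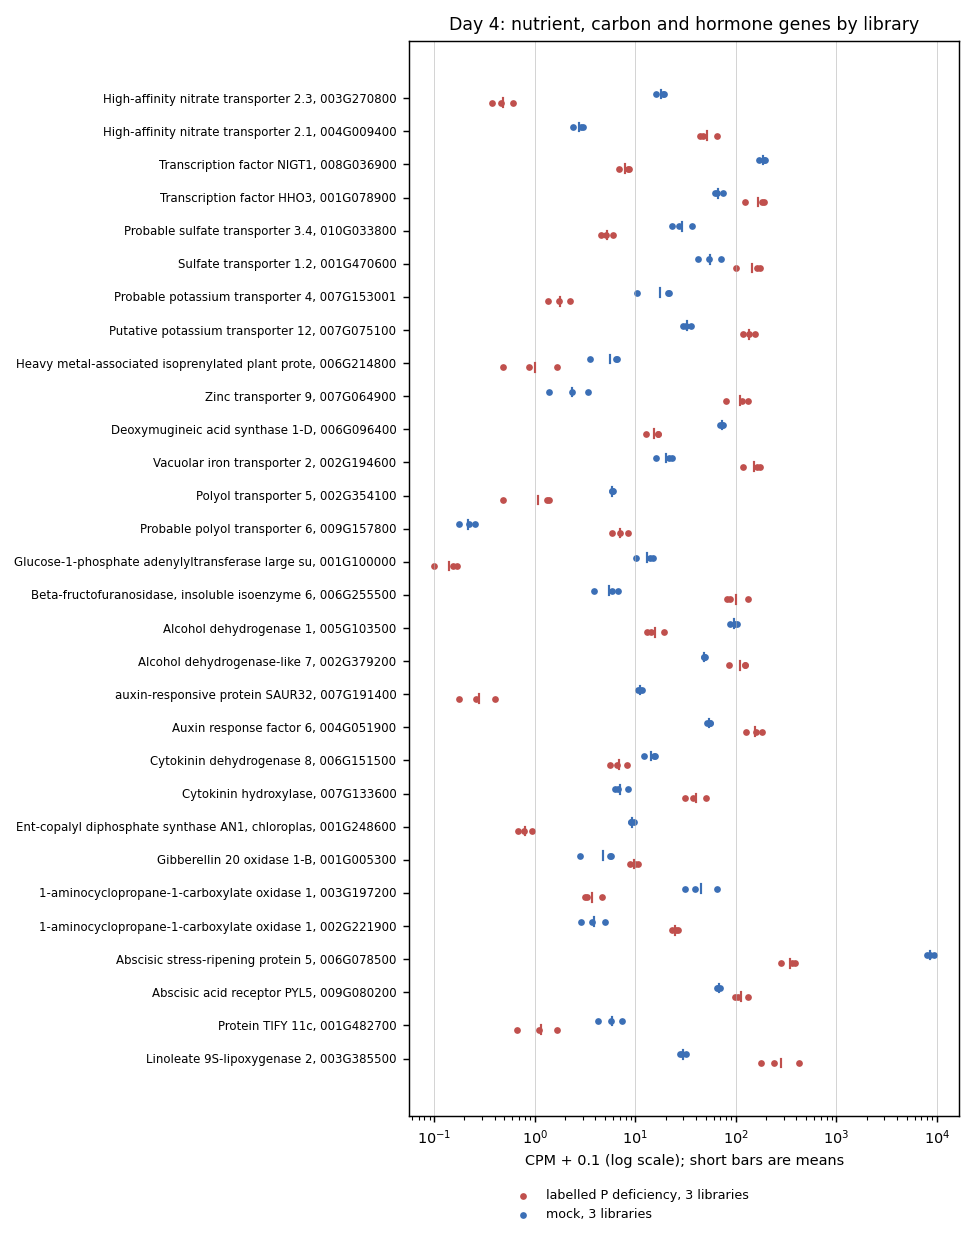
CPM + 0.1 in each of the 3 libraries labelled P deficiency (red) and 3 mock libraries (blue), log scale, for the named gene with the largest difference in each direction of every nutrient, carbon and hormone list; short bars are means. Abscisic stress-ripening protein 5 falls from 7957 to 9407 CPM in mock to 281 to 390 CPM, and zinc transporter 9, high-affinity nitrate transporter 2.1 and the cell wall invertase lie more than 10 times higher in the P-labelled libraries.

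Lists of cell walls and the root surface follow. Lignin and secondary wall genes gave 52 of 100 lower and 11 higher (median -0.68), and summed CPM of 10339, 11426 and 12064 against 27139, 25473 and 25834 in mock. The gains came to 7, 6 and 7 without mock replicate 2, mock replicate 3 or P deficiency replicate 1. Secondary wall cellulose synthases, markers of xylem, summed to 516, 757 and 837 CPM against 2333, 2358 and 2384 CPM with all 4 genes lower. Their part in the result was not tested. Laccase-10 (Sobic.001G422300), which polymerises lignin, was at 0.137, 0.0909 and 0.306 CPM against 69.5, 100.3 and 98.1 CPM in mock. Its fitted log2 fold change of -8.96 became -9.61 without P deficiency replicate 3. Caffeoylshikimate esterase (Sobic.003G150200), an enzyme of monolignol synthesis, was higher at 36.0, 34.5 and 40.6 CPM against 13.7, 14.8 and 10.5 CPM in mock (log2 fold change 1.51 ± 0.16 SE, edgeR adjusted p = 9.45e-06). Among 11 genes of xylem differentiation 3 were higher and 2 lower, with IRREGULAR XYLEM 15 (Sobic.004G047600), needed for xylan, at 8.85, 16.5 and 15.6 CPM against 45.2, 57.8 and 51.4 CPM in mock.

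The list of root hair genes, which holds respiratory burst oxidases, COBRA proteins and genes described by root hairs, gave 14 of 24 lower and 0 higher (median -0.80, 9 at least 2-fold). COBRA-like protein 5 (Sobic.001G336700), of a family that orients cellulose, was at 13.8, 17.7 and 20.7 CPM with the P deficiency label and 125, 132 and 123.5 CPM in mock (log2 fold change -2.87 ± 0.19 SE, edgeR adjusted p = 2.09e-07). The bHLH factors described as RHL1, of root hair growth in rice, are outside that list and were chosen after their values were seen. Of these, Sobic.002G202600 was higher at 20.2, 20.1 and 17.0 CPM against 9.35, 10.2 and 9.08 CPM in mock, Sobic.004G329800 was higher at 28.4, 34.1 and 25.3 CPM against 10.7, 14.8 and 14.1 CPM in mock, and Sobic.010G065500 was lower at 3.75, 5.75 and 7.94 CPM against 10.6, 10.4 and 8.04 CPM in mock (adjusted p = 0.0324 with edgeR). Casparian strip and suberin genes gave 27 of 56 lower and 4 higher, of which 2 were left without P deficiency replicate 2. CASP-like protein 1D1 (Sobic.002G113100) was higher, at 188, 139 and 105 CPM against 32.7, 28.2 and 41.0 CPM in mock. Xyloglucan and pectin enzymes gave 40 of 96 lower and 8 higher (median -0.57). The polygalacturonase At1g80170 gene (Sobic.009G216100), which cuts pectin, was at 156, 136 and 98.8 CPM against 15.3, 11.9 and 13.8 CPM in mock (log2 fold change 3.25 ± 0.19 SE, edgeR adjusted p = 5.10e-08), and the polygalacturonase At1g48100 gene (Sobic.009G243500) was 5.40-fold lower. Expansins, which loosen walls, were called less often than all tested genes, 23.8% against 38.6%, with 8 of 63 higher and 7 lower. The latter count was 4 without mock replicate 1, 11 without mock replicate 3 and 15 without P deficiency replicate 3. Expansin-A9 (Sobic.003G059900) was 3.80-fold lower. Class III peroxidases gave 39 of 125 lower and 16 higher, with 44% called against 38.6% of all tested genes. Cationic peroxidase SPC4 (Sobic.003G436800) was the outstanding gain, at 1454, 1066 and 1186 CPM against 133, 140.4 and 133 CPM in mock (log2 fold change 3.19 ± 0.21 SE, edgeR adjusted p = 1.28e-07), and peroxidase 54 (Sobic.009G144700) was 45.6-fold lower.

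Flavonoid genes gave 37 of 89 lower and 13 higher (median -0.54, summed CPM 1397 to 1606 against 2995 to 3264). An isoflavone reductase homolog (Sobic.003G104600) was at 1.23, 1.93 and 1.23 CPM against 50.4, 53.4 and 51.0 CPM in mock and anthocyanidin reductase (Sobic.006G226400), of proanthocyanidin synthesis, at 13.9, 10.5 and 12.9 CPM against 1.01, 0.988 and 0.807 CPM in mock. Terpene and carotenoid genes gave 12 of 27 lower and 4 higher. Phytoene synthase 3 (Sobic.002G292600), which commits carbon to carotenoids in roots of maize, was higher at 25.1, 17.8 and 18.7 CPM against 4.51, 5.81 and 2.97 CPM in mock, although 1-deoxy-D-xylulose-5-phosphate synthase 2 (Sobic.002G064700), which opens the pathway, was 27.3-fold lower. Sulfotransferases gave 10 of 15 lower and 1 higher (median -0.76). Sulfotransferase 5 Sobic.005G213600 held 10 counts in the P-labelled libraries against 44.6, 45.9 and 45.0 CPM, 582-fold lower, with a fitted log2 fold change of -9.03 that became -10.60 without P deficiency replicate 2. Another gene of that description (Sobic.003G424000) was higher at 6.35, 6.37 and 7.66 CPM against 3.56, 2.61 and 2.71 CPM in mock. Glutathione S-transferases, which conjugate toxic compounds, leaned towards gains, with 24 of 75 higher and 9 lower (median 0.36, 21 and 4 at least 2-fold). Their share called was 44%, against 38.6% of all tested genes. GSTU6 (Sobic.001G319300) was 12.7-fold higher and GSTF1 (Sobic.004G171400) 5.86-fold lower.

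Genes of sorgoleone, the allelopathic quinone that sorghum root hairs exude, gave 4 of 14 lower and 1 higher (median -1.41). The share called, 35.7%, was near the 38.6% of all tested genes. Without P deficiency replicate 3, 8 were lower and 2 higher, and the lower count was 7 with DESeq2 and 8 without a filter on low counts. An O-methyltransferase of that description (Sobic.001G246700), a minor one by level, was at 0.575, 2.23 and 2.71 CPM against 4.97, 7.73 and 5.62 CPM in mock, and a chloroplastic omega-3 fatty acid desaturase (Sobic.001G407600) was higher by 0.47 on the log2 scale. UDP-glycosyltransferases, which attach sugars to hormones and secondary compounds, gave 27 of 83 lower and 20 higher, of which 12 were left higher without mock replicate 2 and 13 without P deficiency replicate 2. UGT83A1 (Sobic.001G084700) was at 138, 109 and 98.4 CPM with the P deficiency label and 4.91, 4.82 and 3.72 CPM in mock (log2 fold change 4.68 ± 0.18 SE, edgeR adjusted p = 9.01e-10) and UGT71K1 (Sobic.002G311601) 5.71-fold lower. ABCB and ABCG transporters gave 24 of 63 lower and 10 higher. The gains came to 4 without mock replicate 2 or 3, 3 without P deficiency replicate 1 and 5 without P deficiency replicate 2. ABCG39 (Sobic.004G087700) was at 74.8, 56.2 and 54.9 CPM against 14.2, 15.8 and 12.1 CPM in mock. ABCB14 (Sobic.007G042600) held 2 counts, from P deficiency replicate 3, against 354, 319 and 344 CPM in mock, a ratio of 19903 (95% counting interval 5612 to 167410.0). Its fitted log2 fold change of -14.04 became -16.62 without that library and is not a measured size.

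Hormone groups differed in direction. Cytokinin genes gave 18 of 46 higher and 2 lower (median 0.35, summed CPM 1336 to 1537 against 955 to 1026). Their share called was 43.5%, against 38.6% of all tested genes. The 2 losses came to 1 without mock replicate 1 and to 4 without P deficiency replicate 3. Cytokinin hydroxylase (Sobic.007G133600), which makes the trans-zeatin type, was at 37.3, 50.9 and 31.3 CPM with the P deficiency label and 6.16, 6.62 and 8.28 CPM in mock (log2 fold change 2.50 ± 0.27 SE, edgeR adjusted p = 1.30e-05). Cytokinin dehydrogenase 8 (Sobic.006G151500), which breaks cytokinins down, was lower at 8.19, 5.55 and 6.48 CPM against 12, 15.7 and 15.1 CPM in mock (log2 fold change -1.08 ± 0.20 SE, edgeR adjusted p = 0.00110). Auxin genes gave 33 of 112 lower and 11 higher (median -0.27), with 39.3% called against 38.6% of all tested genes. SAUR32 (Sobic.007G191400), a small auxin-induced protein, was 61.2-fold lower, and auxin response factor 6 (Sobic.004G051900) was at 179.6, 127 and 158 CPM against 51.3, 55.4 and 54.8 CPM in mock (log2 fold change 1.52 ± 0.14 SE, edgeR adjusted p = 4.03e-06).

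Abscisic acid genes gave 12 of 31 lower and 3 higher (median -0.62, and 0 without a filter on low counts), and their summed CPM of 2814 to 3602 against 12045 to 14340 held abscisic stress-ripening protein 5 (Sobic.006G078500), at 362, 281 and 390.3 CPM with the P deficiency label and 7957, 9407 and 8448 CPM in mock. The receptor PYL5 (Sobic.009G080200) was higher at 132, 105 and 97.4 CPM against 65.1, 70.0 and 66.6 CPM in mock. The jasmonate list gave 15 of 41 lower and 5 higher, yet its summed CPM was above mock, at 4128 to 5180 against 2914 to 3365. The list and its sum also hold linoleate 9S-lipoxygenase 2 (Sobic.003G385500), a lipoxygenase of a type outside jasmonate synthesis. This gene was at 239.7, 177 and 424 CPM against 32.1, 27.6 and 29.3 CPM in mock (log2 fold change 3.24 ± 0.29 SE, edgeR adjusted p = 2.49e-06). The JAZ-type repressor TIFY 11c (Sobic.001G482700) was 5.43-fold lower. Ethylene synthesis genes gave 7 of 20 lower and 4 higher (median 0.18, and -0.12 without P deficiency replicate 1). Their share called was 55%, against 38.6% of all tested genes. A pair of genes for 1-aminocyclopropane-1-carboxylate oxidase 1, which releases ethylene, went opposite ways. Sobic.002G221900 was at 26.3, 25.1 and 23.0 CPM against 2.79, 4.94 and 3.64 CPM in mock (log2 fold change 2.71 ± 0.38 SE, edgeR adjusted p = 0.000123) and Sobic.003G197200 at 3.10, 3.21 and 4.52 CPM against 65.0, 31.4 and 39.4 CPM in mock (log2 fold change -3.65 ± 0.34 SE, edgeR adjusted p = 3.10e-06). Gibberellin genes gave 6 of 24 higher and 5 lower, with 45.8% called. Ent-copalyl diphosphate synthase AN1 (Sobic.001G248600), the entry to gibberellins in maize, was at 0.849, 0.682 and 0.587 CPM against 8.95, 9.67 and 9.03 CPM in mock (log2 fold change -3.70 ± 0.24 SE, edgeR adjusted p = 1.23e-07), and gibberellin 20-oxidase 1-B (Sobic.001G005300) was 2.08-fold higher.

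Transcription factor families held calls in both directions, as did nearly all lists. WRKY factors were called about as often as all tested genes, 37.2% against 38.6%, with 19 of 78 higher and 10 lower (median 0.16), and 15 to 17 higher with any 1 library left out. WRKY76 (Sobic.002G202700), a regulator of defence in rice, was at 73.5, 45.0 and 60.4 CPM with the P deficiency label and 3.16, 5.03 and 5.13 CPM in mock (log2 fold change 3.74 ± 0.50 SE, edgeR adjusted p = 7.46e-05), and WRKY27 (Sobic.009G247700) was 4.43-fold lower. MYB factors gave 22 of 106 higher and 35 lower, but a summed CPM of 6915 to 8398 against 4371 to 5155, where MYBAS2 alone (Sobic.009G016600) had means of 3287 and 879.7 CPM. PHL5 (Sobic.006G256200), a relative of the phosphate regulators, was at 45.1, 47.3 and 42.4 CPM against 6.72, 7.67 and 5.86 CPM in mock (log2 fold change 2.74 ± 0.14 SE, edgeR adjusted p = 2.01e-08), and MYB102 (Sobic.002G337800) was 33.2-fold lower. NAC factors gave 17 of 69 higher and 21 lower, with 11 higher without mock replicate 1 or P deficiency replicate 1. Their share called was 55.1%, against 38.6% of all tested genes. NAC79 (Sobic.002G199200) held 2 counts, from P deficiency replicate 3, against 11.6, 8.54 and 14.9 CPM, a ratio of 688 (95% counting interval 196 to 5865), and its fitted log2 fold change of -9.19 became -11.77 without that library. NAC48 (Sobic.009G142200) was 7.79-fold higher. Factors of the bHLH family gave 15 of 80 higher and 23 lower, with 47.5% called against 38.6% of all tested genes. bHLH35 (Sobic.004G140000) was at 17.9, 13.3 and 13.7 CPM against 0.675, 1.11 and 0.833 CPM in mock (log2 fold change 4.10 ± 0.40 SE, edgeR adjusted p = 5.17e-06), and bHLH041 (Sobic.003G031100) was lower with a log2 fold change of -4.12 that became -5.02 without P deficiency replicate 3. ERF factors gave 20 of 101 higher and 26 lower (45.5% called against 38.6% of all tested genes), with 17 lower without P deficiency replicate 1. ERF113 (Sobic.007G188701) was at 41.6, 35.2 and 28.7 CPM against 1.13, 1.47 and 1.33 CPM in mock (log2 fold change 4.74 ± 0.28 SE, edgeR adjusted p = 5.81e-08), and RAP2-3 (Sobic.009G111200) had a log2 fold change of -3.11, and of -3.70 without P deficiency replicate 3.

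Genes of defence, stress and signalling follow. Pathogenesis-related proteins and chitinases gave 23 of 91 lower and 7 higher (median -0.51), with 11 higher in the fit of only the 6 libraries. The share called was 33.0%, against 38.6% of all tested genes. A Bowman-Birk type wound-induced proteinase inhibitor (Sobic.003G085300) was higher at 9.50, 11 and 6.25 CPM against 1.81, 1.38 and 1.56 CPM in mock, and a Bowman-Birk type trypsin inhibitor (Sobic.005G215766) lower at 0.356, 0.250 and 0.408 CPM against 4.48, 3.74 and 7.71 CPM in mock. Proteases gave 50 of 156 lower and 23 higher, with 14, 13 and 12 higher without mock replicate 2, mock replicate 3 or P deficiency replicate 2. Their share called was 46.8%. Prolyl endopeptidase (Sobic.006G177800) was 62.6-fold higher. Calcium sensors gave 30 of 121 higher and 35 lower, with 19 higher without mock replicate 2 or P deficiency replicate 1. CML50 (Sobic.009G023300), a calcium-binding protein, was at 76.1, 54.9 and 34.1 CPM against 0, 0.120 and 0.104 CPM in mock, 737-fold higher. The kinase CIPK6 (Sobic.002G203100) was lower at 0.356, 0.773 and 0.255 CPM against 12.9, 12 and 13.2 CPM in mock, with a log2 fold change of -4.75 that became -5.41 without P deficiency replicate 2. Receptor-like kinases, with 125 of 616 higher and 115 lower, were close to the share of all tested genes, and 82 were higher without P deficiency replicate 1. A member of unknown ligand (Sobic.008G065200) was at 25.4, 9.64 and 14.3 CPM against 0.705, 0.599 and 0.937 CPM in mock. Wall-associated receptor kinase-like 3 (Sobic.002G166150) was 7.63-fold lower. Heat shock proteins and factors were called about as often as all tested genes, 38.2% against 38.6%, with 12 of 68 higher and 14 lower. Heat stress factor C-1b (Sobic.003G286700) was 5.04-fold higher and A-4d (Sobic.009G208000) 3.16-fold lower.

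Photosynthesis genes, although scarce in these roots, had the highest share of gains of any list, with 23 of 41 higher and 1 lower (median 1.28, 20 gains at least 2-fold). Photosystem I subunit III (Sobic.001G070500) was at 8.30, 9.18 and 7.53 CPM with the P deficiency label and 0.245, 0.779 and 0.208 CPM in mock (log2 fold change 4.35 ± 0.36 SE, edgeR adjusted p = 1.2e-06), and its log2 fold change became 5.16 without mock replicate 2. The photosystem subunits, given above, were higher in all P-labelled libraries. Chlorophyll a-b binding genes summed to 11.6, 13.2 and 13.1 CPM against 6.93, 7.10 and 10.6 CPM, and their part in the result was not tested. Copies of plastid genes in the nuclear genome may share reads with each other and with the plastid, and how such reads were counted is not known. The losses numbered 2 without P deficiency replicate 2. Cytosolic ribosomal proteins had fewer calls than all tested genes, 14.5% of members against 38.6%, with 30 of 214 higher and 1 lower (median 0.25), and the gains rested on single libraries, with 9, 7 and 12 without mock replicate 1, 2 or 3, and 3 without P deficiency replicate 2. The 1 loss became 2 without mock replicate 1 or P deficiency replicate 2 and 6 without P deficiency replicate 3. A L18a-like gene (Sobic.009G233300) was higher at 54.9, 58.4 and 38.3 CPM against 24.9, 23.1 and 24.2 CPM in mock, and S25-2 (Sobic.003G322532) lower at 14.4, 14.8 and 29.2 CPM against 48.1, 54.9 and 47.0 CPM in mock.

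Markers of dividing cells moved little. Histones gave 4 of 53 higher and 1 lower, with 2, 1 and 2 gains without mock replicate 1, P deficiency replicate 1 or P deficiency replicate 2. There were 0 losses without mock replicate 1 or P deficiency replicate 1 and 9 without P deficiency replicate 3. Their summed CPM overlapped, at 3747, 4247 and 4647 against 4054, 4449 and 4189. Histone H3.3 (Sobic.004G188000) was higher by 0.77 on the log2 scale and histone H2B.5 (Sobic.003G092200) fell by 0.77. Their calls ended without P deficiency replicate 1 (adjusted p = 0.0510 and 0.0569), the latter also without mock replicate 1 (adjusted p = 0.0564). Among 41 cyclin and DNA replication genes 1 was higher and 1 lower, with 4 lower without P deficiency replicate 3 and 2 higher without mock replicate 1. Cyclin-D2-2 (Sobic.002G378600) was at 26.8, 24.9 and 24.1 CPM against 16.5, 18.8 and 14.9 CPM in mock. Ribonucleoside-diphosphate reductase (Sobic.010G106300), which makes the DNA precursors, was at 21.7, 23.9 and 28.9 CPM against 32.9, 36.9 and 36.1 CPM in mock.

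Most lists held opposite calls. Of all tested genes 20.3% were higher and 18.4% lower, shares at which a list of many genes of any kind would hold both. Of 56 gene lists, 54 held members called in both directions and 50 did so at 2-fold or more. Losses outnumbered gains in 39 lists and gains outnumbered losses in 14. All or nearly all called members were lower among SPX proteins, phosphate starvation regulators, phosphate transporters, sulfotransferases and genes of the root hair list. The RHL1 factors named above are outside that list. Nearly all were higher among photosynthesis, cytokinin and cytosolic ribosomal protein genes, the last with a small share called.

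**Figure D4:**
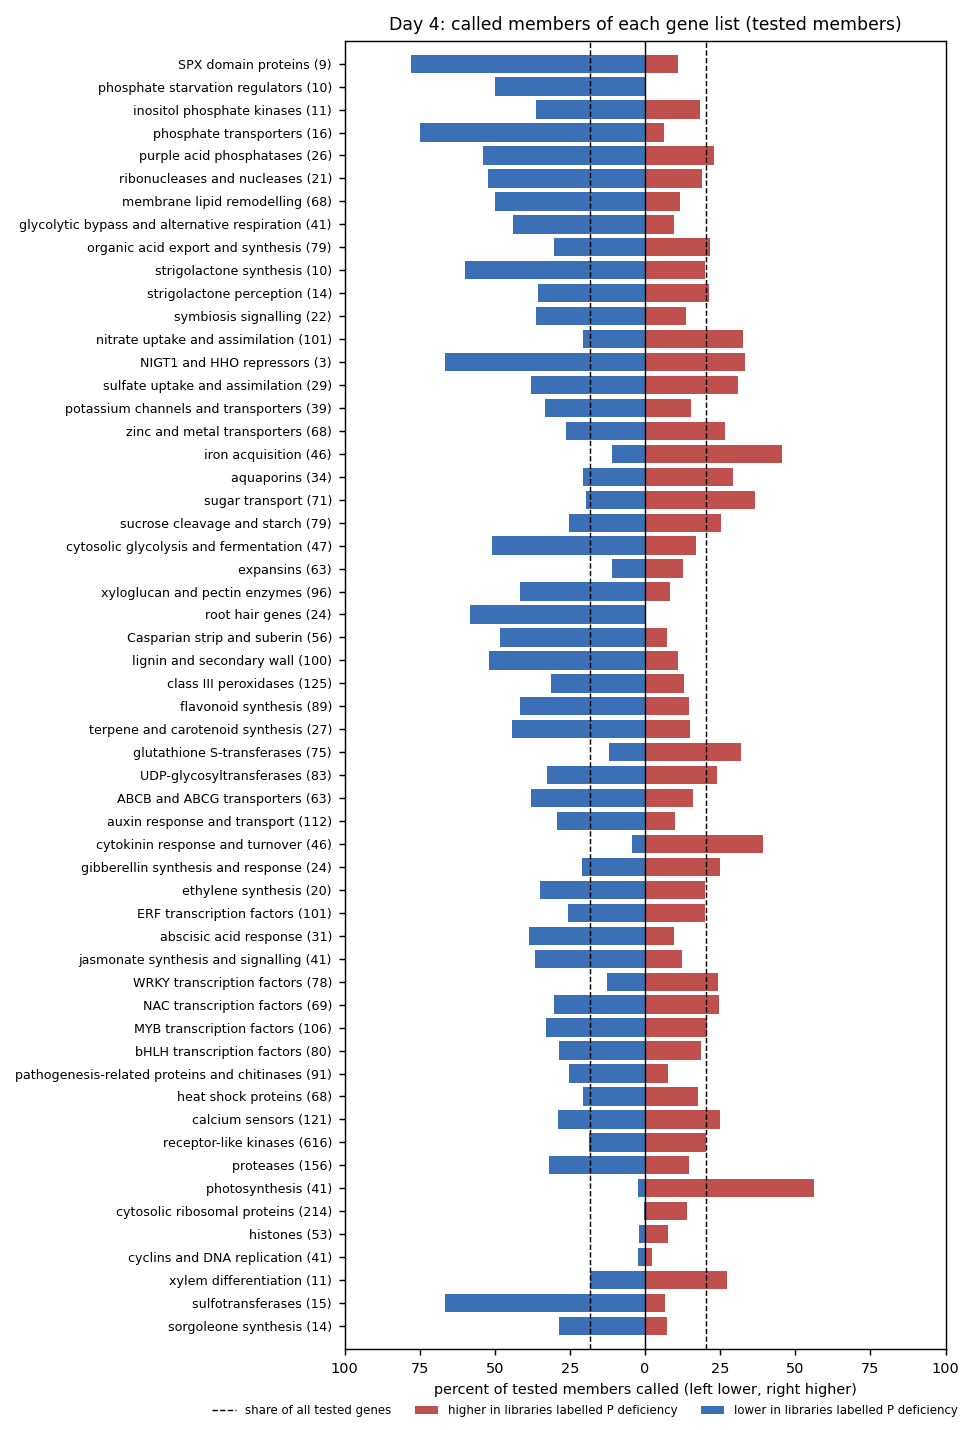
Percent of tested members of each of 56 gene lists called higher (red, to the right) or lower (blue, to the left) in the P-labelled libraries at day 4, with the number of tested members in parentheses. Dashed lines mark the shares of all tested genes, 20.3% higher and 18.4% lower; the phosphate lists at the top extend far past the line on the lower side.

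Most genes called at day 4 were called the same way at day 7. Each day has its own mock libraries. Of the 5094 genes higher at day 4, 3439 (67.5%) were also called higher at day 7, when 4386 of 25137 (17.4%) were higher, and 9 were called lower. Of the 4619 lower genes, 3463 (75.0%) were also called lower, against 4572 of 25137 (18.2%), and 14 were called higher. The difference between the days itself passed the test for 117 genes (0.465%), of which 40 had been called higher and 48 lower at day 4. This count depended on single libraries. It was 73 and 68 without day 4 mock replicate 1 or 2, 60 without day 4 P deficiency replicate 2, 58 and 180 without day 7 mock replicate 2 or 1, and 75 and 72 without day 7 P deficiency replicate 1 or 2. SPX5 (Sobic.001G342400) had a log2 fold change of -8.63 at day 4 and -9.25 at day 7.

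The list of iron acquisition genes held 2 of the 117 among its 46 tested members. Genes that act on iron, grouped after their values were seen and named for the small p of this difference, are given as examples. The vacuolar iron transporter 2 gene (Sobic.002G194600) was at 119, 175 and 163 CPM with the P deficiency label and 21.4, 16.1 and 23.0 CPM in mock at day 4 (log2 fold change 2.91 ± 0.26 SE, edgeR adjusted p = 2.51e-06), but at 18.2, 13.8 and 16.8 against 11.8, 24.6 and 23.5 CPM at day 7. The ferrous iron uptake gene described as Fe(2+) transport protein 1 (Sobic.001G142800) was already higher at day 4, at 197, 207 and 179 CPM against 79.8, 58.4 and 67.3 CPM in mock, and its log2 fold change was 1.5 at day 4 and 3.66 at day 7. BRUTUS (Sobic.009G222200), a ubiquitin ligase that curbs the iron response in Arabidopsis, was at 37.6, 36.3 and 32.7 CPM against 39.5, 51.2 and 38.9 CPM in mock at day 4, not called (adjusted p = 0.0976 with edgeR), and had a log2 fold change of 2.93 at day 7 (adjusted p = 5.76e-09).

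**Figure D5:**
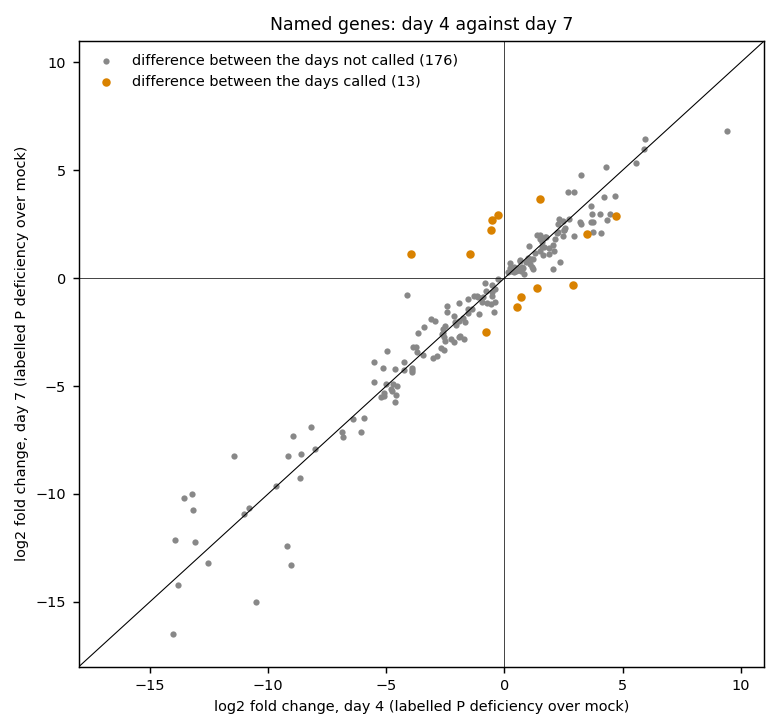
Log2 fold change of the 189 named genes at day 7 (vertical axis) against day 4 (horizontal axis), both labelled P deficiency over mock, with the line of equal values. Most points lie near the line, and the 13 genes whose difference between the days was called (orange) lie off it.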

How the data were processed

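RNA from sorghum roots was sequenced, per the labels' protocols, from 1 µg of total RNA per sample (RNAprep Pure Plant Kit) with an mRNA library kit (Hieff NGS Ultima Dual-mode). The submitters' processing notes name DESeq2 1.22.1, featureCounts, HISAT2 and fastp without their role. Neither a genome build nor the strandedness was found in the labels, so no positions are printed. Per the file headers, the authors deposited a raw count and an FPKM per gene and library, and, for each comparison, a log2 fold change and FDR (adjusted p-value). Of the authors' log2 fold changes only the sign was used, and the authors' FDR (adjusted p-value) enters no result here.

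Counts of 35907 genes in 12 libraries (4 groups of 3) were fitted together with 1 mean per group in edgeR 4.0.16 under R 4.3.3 (TMM scaling, filterByExpr, robust quasi-likelihood test), which left 25137 genes, with adjusted p below 0.05 as threshold. In simulated counts for the day 4 comparison over 24769 genes, 100 genes were changed 2-fold and 100 were changed 4-fold. Of these, 53 and 99 were recovered, with 10 false calls. In the deposited counts far more genes were called, 9713 of 25137. Recovery and the share of false calls at that number was not tested. Where a group held 0 counts, folds are bounds against 3 counts per library, and for 1 to 3 counts ratios carry a 95% counting interval. Bounds and intervals cover counting error only.

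Gene names and 56 lists rest on words in the deposited descriptions, since 0 Sobic identifiers were found in the RefSeq gene table. The libraries compared, the lists and the rule for named genes were chosen with earlier results of these data known, and some list words were corrected after the files were seen, to drop descriptions that matched by accident. Candidates for naming were called genes with a description, no overlap between groups and a mean of 5 CPM or more in the higher one. Of these, the 8 largest gains and losses in CPM and the largest fold change per list and direction were named. In the phosphate, strigolactone and symbiosis lists it was 3 per direction. Other named genes did not have to meet these conditions. They are the 5 most abundant genes with 0 counts in the other group and all tested members of the small phosphate and strigolactone lists. Added to them are the 5 described genes per direction with the smallest p among those called for a difference between the days.

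Alternatives were RLE size factors, total counts only, DESeq2 1.42.0, no filter, a filter of 30 reads in 3 libraries, only the 6 libraries compared, the replicate number as a block, each library left out, and a fold of at least 2. No pair of libraries held identical counts.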

Additional observations from a re-analysis of the deposited data

Results flagged for a closer look

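For 13 named genes the difference between labelled P deficiency and mock itself differed between day 4 and day 7 (edgeR interaction of treatment and day, adjusted p below 0.05). The values here are the log2 fold change at day 7 minus that at day 4. Genes that act on iron, grouped after their values were seen, come first. The list of iron acquisition genes held 2 genes with such a call among its 46 tested members. BRUTUS (Sobic.009G222200), a ubiquitin ligase of the iron response, gained 3.21 (adjusted p = 5.96e-06), Fe(2+) transport protein 2 (Sobic.001G156800) 3.2 (adjusted p = 0.00187), oligopeptide transporter 3 (Sobic.001G087700), which moves iron in the phloem, 2.78 (adjusted p = 7.28e-05) and Fe(2+) transport protein 1 (Sobic.001G142800) 2.15 (adjusted p = 0.00285). Vacuolar iron transporter 2 (Sobic.002G194600) changed by -3.21 (adjusted p = 0.00187).

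The wound-induced lectin ipomoelin (Sobic.005G182500) was lower at day 4 (-1.45) and higher at day 7 (1.10), a difference of 2.55 (adjusted p = 0.000519). The Bowman-Birk type trypsin inhibitor (Sobic.005G215766), which blocks digestive proteases, differed by 5.08 (adjusted p = 0.0256), with -3.97 at day 4 and 1.11 at day 7, where it was not called (edgeR adjusted p = 0.181). The remaining genes had a lower value at day 7. Chlorophyll b reductase NYC1 (Sobic.003G010600), of chlorophyll breakdown, changed by -1.89, cold-regulated protein 27 (Sobic.001G480400) by -1.83, 3-ketoacyl-CoA synthase 11 (Sobic.009G241000), which lengthens fatty acids, by -1.71 and the F-box protein At2g16365 (Sobic.009G223500) by -1.60. ERF113 (Sobic.007G188701) changed by -1.84 and expansin-like A2 (Sobic.001G311000) by -1.42, both higher at each day.

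Of the 13 genes, 10 kept the call in all 12 fits with 1 library left out. These 10 had been named for the smallest p of the same test in these libraries, which favours keeping the call. Expansin-like A2 kept it in 2, ERF113 in 2 and the trypsin inhibitor in 4, with highest adjusted p-values of 0.183, 0.134 and 0.0900, all without day 4 P deficiency replicate 2.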

How the results depend on the processing

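At day 4 the counts of genes higher (5094) and lower (4619) stayed within 1.5 times under every alternative except a threshold of at least 2-fold, which left 2046 and 2636. With 1 library left out they ranged from 3427 to 5024 and from 3671 to 5284, and at day 7 from 3398 to 5008 and from 3773 to 5144. The 117 genes whose difference changed between the days became 430 with DESeq2 and 58 to 180 with 1 library left out. The mean share of counts in genes called higher, 37.1% in the libraries labelled P deficiency and 19.4% in mock, became 12.97% and 3.88% at 2-fold, and that of genes called lower, 15.4% and 34.96%, became 6.02% and 20.7%. The 10 genes with 0 counts in the libraries labelled P deficiency became 15 with a mean of at least 5 CPM in mock and 1 with at least 50, and the 0 genes with 0 counts in mock became 1 at 5 CPM.

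The replicate number as a block gave 4815 genes higher and 4490 lower at day 4, 4179 and 4268 at day 7, and 71 in place of 117 for the difference between the days. The deviations of same-numbered libraries at day 4 correlated at -0.20, -0.09 and -0.08, and those of libraries with other numbers at -0.08 to 0.16. Deviations from a mean of 3 libraries depend on each other, so these values cannot decide whether the numbers pair the samples.

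Of 189 named genes 174 kept their call and sign under every alternative, 14 lost the call in 1 or more, and 0 changed sign. The rule for naming favoured this, since many were taken for large differences without overlap in these same libraries. These counts therefore do not describe all called genes. Fe(2+) transport protein 2 (Sobic.001G156800), not called at day 4, was called lower without P deficiency replicate 2 (adjusted p = 0.0483). Counts of called list members were within 1.5 times of the reported ones in all but 140 cases. The cause of these shifts was not tested. A search of promoters for the PHR binding motif was planned and not run. Depth limits rare genes: 3 counts per library correspond to a mean of 0.0756 CPM with the P deficiency label and 0.0866 CPM with the mock label.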

Other observations

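Genes without a deposited description made up 28.3% of the genes called higher at day 4 and 22.7% of those called lower, against 33.0% of the genes not called. Of the genes called higher 219 were predicted by the authors outside the reference annotation, and of those called lower 84. Among these, the predicted gene NewGene_1610 had 45.5, 50.5 and 51.0 CPM in mock and 0 counts in all libraries labelled P deficiency, at least 647-fold lower, and the undescribed gene Sobic.010G019200 had 17.3, 22.9 and 19.7 CPM and 0 counts, at least 264-fold lower. Both were at 0 counts in all P-labelled libraries of day 7 as well, with 91.7, 50.3 and 48.4 CPM and 26.9, 35.3 and 31.6 CPM in mock.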
